A study of Leucoraja erinaceus with 4 samples.

Results

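The synarcual of the little skate, Leucoraja erinaceus, at stage 33 was compared with the synarcual at stage 28. The synarcual is a rigid tube at the front of the vertebral column of skates and rays in which vertebral elements are joined into 1 block behind the skull. The comparison rests on 2 of the 4 libraries of the series: the stage 33 synarcual and the stage 28 synarcual, each dissected from males, with 1 library a stage. The other 2 libraries hold the axial skeleton behind the synarcual (the post-synarcual) at stage 33 and at stage 28, and serve here as values to set beside those of the synarcual. From all 4 samples the central nervous system and the axial muscle were removed before total RNA was taken, per the labels' protocols. The protocol speaks of 2 males and leaves the number of animals per library unsaid, no genotype, strain or treatment is labelled, and a difference between stages cannot be told apart from one between animals. Expression was given for 23105 assembled features, the genes of a de novo transcriptome, and the 10888 features with at least 50 counts in the higher of the 2 synarcual libraries were compared. The identifiers are not paired with gene names in the sources used here, so features are described by their levels, lengths and patterns, the tissue labels were not checked against marker genes, and no sequence is shown.

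A skate's skeleton is made by chondrocytes, cells that divide, enlarge and secrete a matrix of collagens and large proteoglycans. In cartilaginous fishes the skeleton stays cartilage, with mineral laid down in small tiles near its surface and in the vertebral centra. Dissected skeletal tissue also carries perichondrium, connective tissue, vessels and blood, and in bulk RNA fewer cells of a type and less RNA per cell cannot be told apart.

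The stage 33 synarcual library held 4713268 counts and the stage 28 synarcual library 4167062. A level of 3 counts was taken as the detection limit, since a count of 0 leaves room for that many. In scaled CPM (counts brought to a common library size) the limit was 0.769 at stage 33 and 0.521 at stage 28. Counts were scaled with TMM, a trimmed mean of the folds between libraries that sets the typical feature, not the library total, as the point of no difference. The 100 most abundant features took 47.4% of all counts in the stage 33 library and 24.6% in the stage 28 library, and 90% of counts were held by 4841 features at stage 33 and by 6476 at stage 28. For a share of counts in either library the exact 95% Clopper-Pearson interval is at most 0.0480 percentage points to each side. With 1 library a stage there is no test, and all intervals cover counting error only.

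At stage 33 the synarcual held a small set of features at many times their stage 28 level. Of the compared features, 2012 (18.5%) were higher at stage 33 by 2-fold or more and 1751 (16.1%) were lower by 2-fold or more. The set that was higher reached larger folds: 948 features (8.71%) were at least 4-fold higher against 473 (4.34%) at least 4-fold lower, 308 (2.83%) at least 16-fold higher against 90 (0.827%) at least 16-fold lower, and 99 (0.909%) at least 64-fold higher against 8 (0.0735%) at least 64-fold lower. The middle of the distribution was narrow, with 25% of log2 folds below -0.69, a median of -0.08 and 25% above 0.65, while the outer 1% lay below -3.76 and above 5.84. Most features, 7125 of 10888, differed by less than 2-fold with TMM scaling, but with total counts most differed by 2-fold or more. The minimum of 50 was set on unscaled counts, so in scaled CPM it lay higher at stage 33 than at stage 28. Of the compared features, 2153 reached it at stage 28 only and 948 at stage 33 only. The counts of features by fold are not corrected for this.

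**Figure D1:**
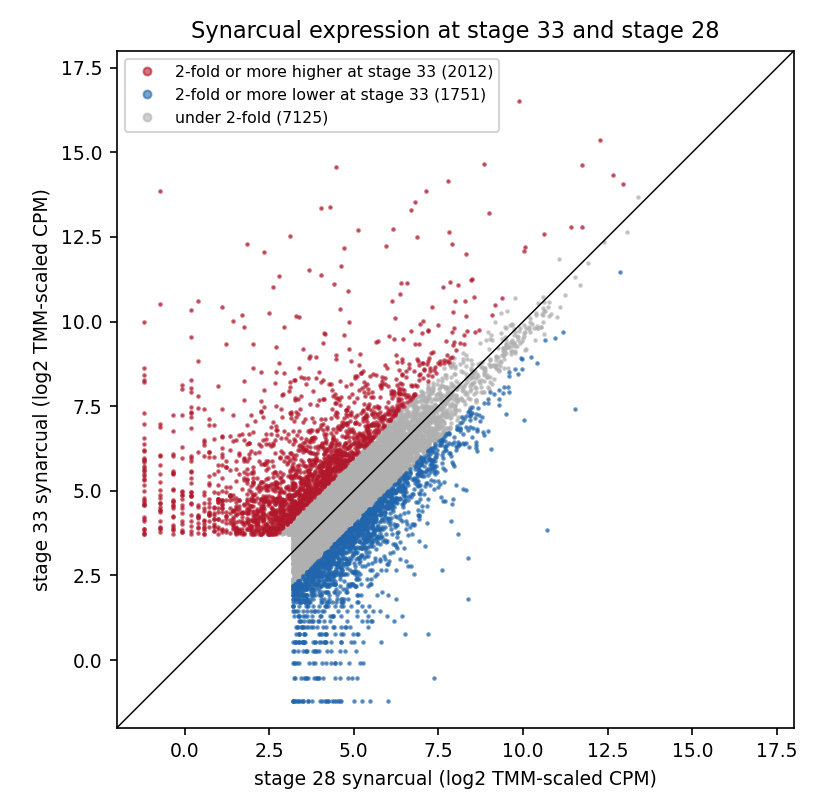
Each point is 1 of 10888 features, with its level in the stage 33 synarcual (vertical axis, log2 TMM-scaled CPM) against its level in the stage 28 synarcual (horizontal axis, same unit); the line marks equal levels. The 2012 features at least 2-fold higher at stage 33 spread farther from the line than the 1751 at least 2-fold lower, and rows of points at the left and lower edges are features with counts near 0 in 1 library.

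How many features count as higher or lower depends on what is held equal between the stages. Scaling to total counts moves log2 ratios by -0.74, and the deposited TPM values move the typical fold by -0.37. With total counts 1144 features were higher by 2-fold or more and 4555 were lower, and with TPM 1457 were higher and 2905 lower. At 16-fold the order of the counts held under each of these scalings: 225 higher and 144 lower with total counts, and 251 higher and 103 lower with TPM. Counted from the median fold in place of 0, 315 features lay at least 16-fold above it and 86 at least 16-fold below it, and 104 and 8 lay at least 64-fold above and below.

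**Figure D2:**
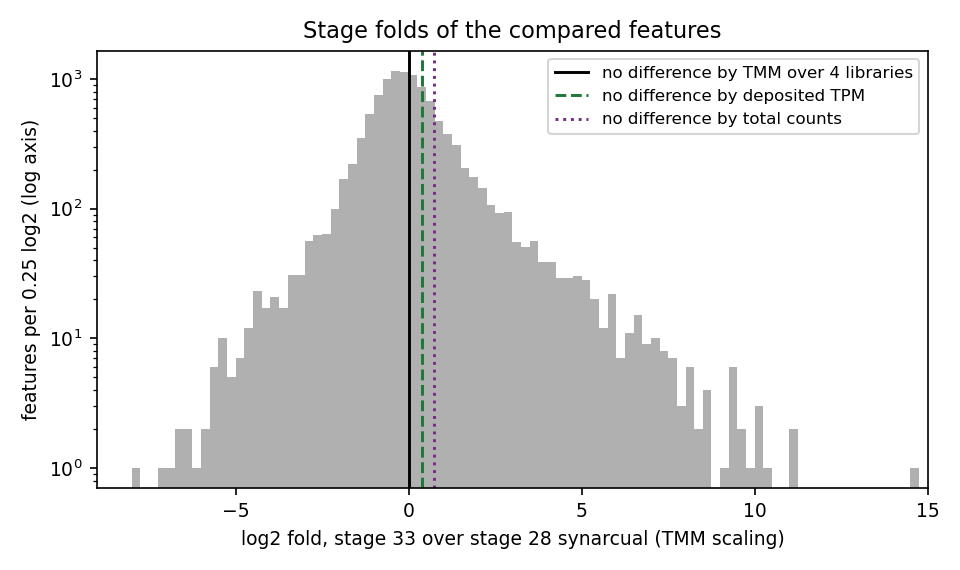
Number of features (vertical log axis) per step of log2 fold, stage 33 over stage 28 synarcual, with TMM scaling (horizontal axis). The vertical lines mark where no difference lies with TMM, deposited TPM and total counts; the right tail runs past 14 and the left tail ends near -8.

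The features with the largest folds accounted for much of the stage 33 library. The 99 features at least 64-fold higher held 24.1% of stage 33 counts and 0.276% of stage 28 counts. A single feature of the 99, TRINITY_DN37437_c0_g1 (described below), held 7.79% of stage 33 counts and 0.131% of stage 28 counts. The 209 features between 16- and 64-fold higher held 7.13% at stage 33 and 0.371% at stage 28. All 2012 features at least 2-fold higher together held 56.4% of counts at stage 33 and 11.4% at stage 28. These shares describe the folds that defined the classes and are not separate evidence of them. In TPM, a level corrected for feature length, the same 2012 features held smaller shares at both stages. These were 40.3% of TPM at stage 33 and 5.83% at stage 28. Features that were at least 2-fold lower took 3.57% of counts at stage 33 and 18.3% at stage 28, and those under 2-fold took 38.0% at stage 33 and 67.6% at stage 28.

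**Figure D3:**
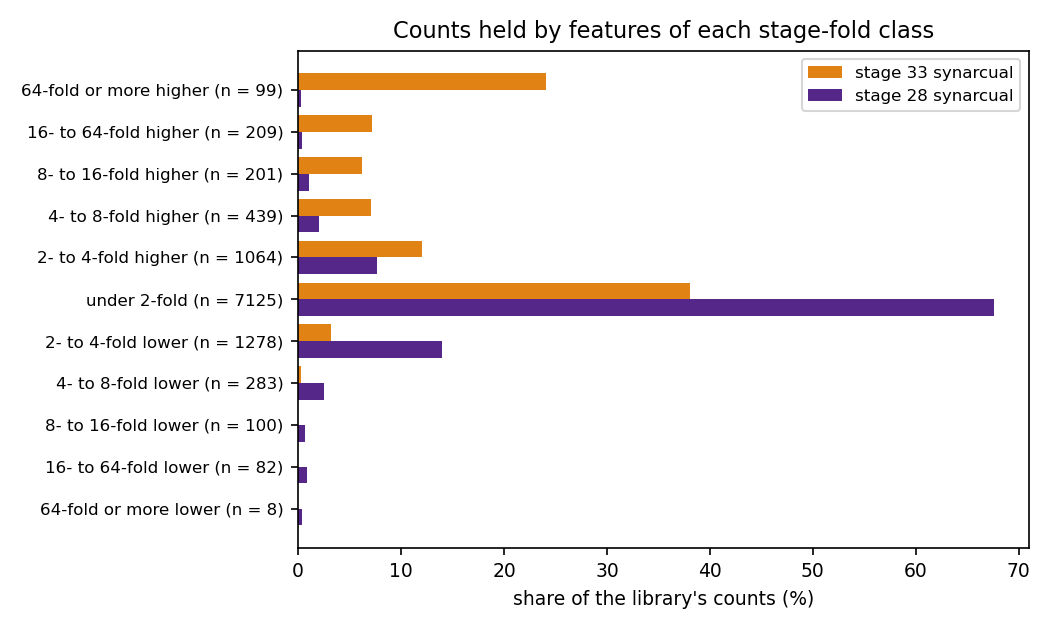
Share of a library's counts (horizontal axis, %) held by the features of each class of stage fold (rows, with the number of features), in the synarcual of stage 33 (upper bars) and of stage 28 (lower bars). The 99 features at least 64-fold higher held 24.1% of counts at stage 33 and 0.276% at stage 28. A single feature of the 99 held 7.79% of counts at stage 33.

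The most abundant features of each stage were also compared. Each set was chosen by its level at 1 of the stages that enter the fold, which favours folds toward that stage, so the counts below describe the sets only. The 50 features with the highest TPM at stage 33 had a median of 4518 TPM there and 336 TPM at stage 28. Of these 50, 37 were at least 2-fold higher at stage 33, 26 of them at least 16-fold, and 0 were at least 2-fold lower. The 50 with the highest TPM at stage 28 had a median of 2235 TPM at stage 33 and 3821 TPM at stage 28. Only 6 of these were at least 2-fold lower at stage 33, 2 were at least 2-fold higher, and 42 differed by less than 2-fold. The sets shared 14 features. With total counts 33 of the late set were higher at stage 33 and 4 lower, and 0 of the early set were higher and 32 lower. The late set was longer, with a median length of 1139 bp against 659.5 bp in the early set.

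The feature with the largest fold, counted by the bound of its counting interval nearest to 1, was TRINITY_DN39530_c0_g4, which has 3 assembled transcripts. Its deposited synarcual length was 2616 bp at stage 33, and 3025 bp at stage 28, where it rests on 1 count. In the synarcual the stage 33 library had 57510 counts of it and the stage 28 library 1. In the post-synarcual the stage 33 library had 101759 and the stage 28 library 0. It was high in both stage 33 libraries and at the detection limit in both stage 28 libraries. Its synarcual level was 8319 TPM at stage 33 and 0.11 TPM at stage 28. The ratio of scaled counts was 84849 in the synarcual, with a 95% counting interval of 15228 to 3351430. The post-synarcual difference has the same direction, and no ratio is given against its stage 28 count of 0.

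The feature with the largest gain in scaled counts was TRINITY_DN37437_c0_g1, a single-transcript feature of 6020 bp. The synarcual had 367344 counts of it at stage 33 and 5457 at stage 28. The post-synarcual had 350272 counts at stage 33 and 13280 at stage 28. It was abundant at both stages and in both regions, and both stage 33 libraries lay above both stage 28 libraries. Its synarcual level was 22054 TPM at stage 33 and 291 TPM at stage 28. The ratio of scaled counts was 99.3 in the synarcual, with a counting interval of 96.7 to 102. For the post-synarcual the ratio was 48.8, with an interval of 48.0 to 49.7. The difference between those ratios was not tested.

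Among features that were lower at stage 33, TRINITY_DN32019_c0_g1 (674 bp, 1 transcript) had the largest fold by the same bound. The synarcual had 1 count of it at stage 33 and 939 at stage 28, and both post-synarcual libraries had 0. It was thus high in 1 library of the 4. Its synarcual level was 0.74 TPM at stage 33 and 604 TPM at stage 28. In scaled counts the level at stage 28 was 636 times that at stage 33, with a counting interval of 114 to 25165. What the stage 28 synarcual sample held that the others did not was not tested.

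The largest loss in scaled counts was that of TRINITY_DN42602_c2_g3, with 2 transcripts and a length of 1725 bp. The synarcual had 10975 counts of it at stage 33 and 42980 at stage 28. The post-synarcual had 6945 counts at stage 33 and 35985 at stage 28. Both stage 33 libraries lay below both stage 28 libraries. Its synarcual level was 2515 TPM at stage 33 and 8707 TPM at stage 28. From TMM-scaled counts its log2 stage fold was -1.41 for the synarcual, against -1.48 behind it. With total counts in place of TMM the synarcual fold is larger by 0.74 log2, in the same direction.

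The other 6 features of the same assembly component did not move together. A component is a set of assembled transcripts that share sequence, so its features can be parts of 1 gene, close copies or relatives, and their reads may have been split among them. These features were looked at after the values of TRINITY_DN42602_c2_g3 were seen. Of a feature of 1021 bp the synarcual had 36666 counts at stage 33 and 2923 at stage 28. Its ratio of scaled counts was 18.5, with a counting interval of 17.8 to 19.2. Features of 696 bp and 689 bp were 14.7-fold (13.3 to 16.3) and 12.01-fold (10.4 to 13.96) higher at stage 33, and 1 of 2080 bp was 2.07-fold higher (1.77 to 2.44). Features of 827 bp and 550 bp were lower, with ratios of 0.484 (0.455 to 0.514) and 0.471 (0.437 to 0.507). The component thus held 3 features with lower and 4 with higher levels at stage 33, and no direction among the 7 changes with total counts, where the 2080 bp feature has a log2 fold of 0.31. The order of abundance was reversed: the 1021 bp feature had 15458 TPM at stage 33 and 1093 TPM at stage 28, and TRINITY_DN42602_c2_g3 had 2515 TPM at stage 33 and 8707 TPM at stage 28. In the post-synarcual the log2 folds of the 1021 bp, 696 bp and 689 bp features were 4.48, 5.13 and 2.88, and those of the 827 bp and 550 bp features -1.29 and -1.31. The 2080 bp feature had 195 post-synarcual counts at stage 33 and 296 at stage 28, a log2 fold of 0.28 after TMM scaling. With TMM scaling its 2-fold difference in the synarcual was thus not matched behind it. That difference was under 2-fold with total counts, and its interval reached below 2-fold. The difference between regions was not tested.

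Components were also counted by the directions of their compared features. Of 503 components with at least 2 compared features, 84 had every compared feature at least 2-fold higher at stage 33, 41 had every one at least 2-fold lower, and 9 had a feature at least 2-fold higher together with a feature at least 2-fold lower. In 256 components all compared features stayed under 2-fold. With total counts the first 3 numbers were 48, 147 and 10. The median spread between the highest and the lowest log2 fold of a component was 0.39. Features of 1 component share sequence and may share reads, so they are not separate observations.

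Some features were at or near the detection limit at 1 stage. At stage 33 only, 103 features had at least 50 counts with 3 or fewer at stage 28, and 39 of them had 0 at stage 28. At stage 28 only, 83 features had at least 50 counts with 3 or fewer at stage 33, and 30 of them had 0 at stage 33. The stage 33 set reached higher levels, with counts from 50 to 57510, a median of 120 and 9 features of 1000 counts or more, against 50 to 939, a median of 85 and 0 features of 1000 counts or more in the stage 28 set. The median TPM was 37.5 in the stage 33 set and 18.5 in the stage 28 set. In total the 103 features took 1.90% of stage 33 counts and the 83 features 0.220% of stage 28 counts.

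The post-synarcual library of the same stage, which played no part in choosing these sets, showed different levels for them. Of the 103 features high at stage 33, 91 had at least 50 counts in the stage 33 post-synarcual and 0 had 3 or fewer, with counts there from 14 to 101759 and a median of 158. Of the 83 features high at stage 28, 20 had at least 50 counts in the stage 28 post-synarcual and 15 had 3 or fewer, with counts there from 0 to 271 and a median of 23. At the other stage, 57 of the 103 had over 3 counts in the stage 28 post-synarcual, and 18 of the 83 in the stage 33 post-synarcual. Only 37 of the 103 and 14 of the 83 met the full rule, 50 or more against 3 or fewer, in the post-synarcual too. At stage 33 the stage 33 set was thus present in both regions, and at stage 28 much of the stage 28 set was lower behind the synarcual. Of the 83, 40 were at least 4-fold higher in the stage 28 synarcual than in the stage 28 post-synarcual, with a post-synarcual count under 3 set to 3. That compares with 1.29% of the 9940 features with at least 50 counts in the stage 28 synarcual. For the stage 33 set the same count was 0 of 103, against 0.0801% of 8735 features. When the same rule chose features in the post-synarcual, 71 were high at stage 33 and 66 at stage 28. In the synarcual of the same stage 50 of those 71 and 38 of those 66 had at least 50 counts. Of these sets 5 of 71 and 18 of 66 were at least 4-fold higher in the post-synarcual than in the synarcual of the same stage, against 0.475% of 7577 and 1.92% of 9937 features with at least 50 counts in those libraries. By number, the set high at stage 28 held more region differences of 4-fold in either region, and more so when chosen in the synarcual. The share over all features was also higher at stage 28 than at stage 33 in both regions. The 40 of 83, the 18 of 66 and the 5 of 71 still lay above the share over all features of their library. The 0 of 103 is near it. Each set was chosen by a high count in 1 of the libraries compared. These numbers therefore describe the sets, and no trait of the sets is read from them. The 4-fold counts were made with TMM scaling only. The difference between the sets was not tested. Choosing features by a high count in 1 library favours a lower count in another. How far this bears on these numbers was not tested. The scaled library sizes of the stage 28 synarcual and post-synarcual were close, at 5753483 and 5632893.

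**Figure D4:**
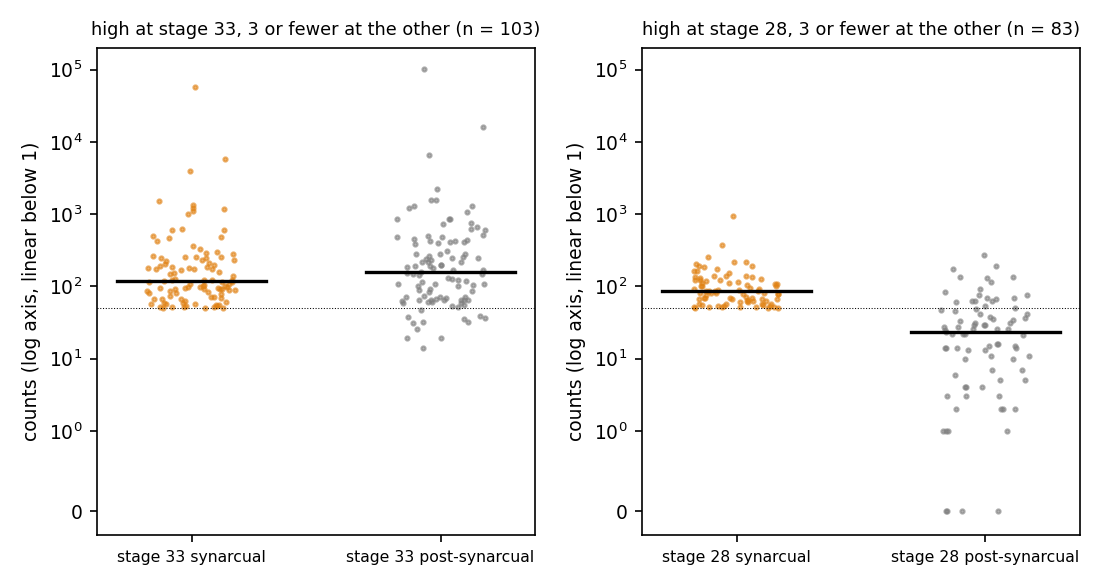
Counts (vertical log axis, linear below 1) of the 103 features high at stage 33 (left) and the 83 high at stage 28 (right) in the synarcual library that chose them and in the post-synarcual library of the same stage; bars are medians and the dotted line is 50 counts. The medians are 120 and 158 at stage 33, and 85 and 23 at stage 28.

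Features with folds of at least 16 were chosen by another rule from the same libraries, so they are not a separate observation. Among the 308 features at least 16-fold higher at stage 33, the median log2 ratio of synarcual over post-synarcual at stage 33 was -0.52, with 43 higher in the synarcual by 2-fold or more and 129 lower. Over the 9003 features with at least 50 counts in the higher stage 33 library, 6.31% were higher and 5.44% lower in the synarcual. With total counts the median of the 308 was -0.05, with 60 higher and 99 lower. Among the 90 at least 16-fold lower at stage 33, the same median at stage 28 was 2.07, with 68 higher in the synarcual by 2-fold or more and 1 lower, and with total counts it was 2.03, with 66 and 1. Over the 10582 features with at least 50 counts in the higher stage 28 library, 4.39% were higher and 4.93% lower in the synarcual. Each of these region ratios shares a library with the stage fold that chose the features, so they describe the sets and do not test them. The stage folds of the post-synarcual share no library with those of the synarcual. Of the 308, 293 had at least 50 counts in a post-synarcual library, and 292 of those were at least 2-fold higher there at stage 33 (background 15.8%). Of the 90, only 36 had at least 50 counts in a post-synarcual library, and 34 of those were at least 2-fold lower there (background 15.6%). Features of either set can pass this minimum through the post-synarcual library of their high stage alone. The backgrounds cover all features compared in the post-synarcual, so these numbers describe the sets, and their excess over the background was not tested.

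Over all features with at least 50 counts in both comparisons, 10024 in number, most 2-fold stage differences had the same direction in both regions. These features include 1694 of the 2012 that were higher in the synarcual and 1529 of the 1751 that were lower. The rest had under 50 counts in both post-synarcual libraries and are not covered. Of all 10024, 1550 were at least 2-fold higher at stage 33 in the post-synarcual and 1504 at least 2-fold lower. Of 1694 features at least 2-fold higher at stage 33 in the synarcual, 1223 were at least 2-fold higher in the post-synarcual, which is 72.2% of the synarcual list and 78.9% of the post-synarcual list. For the features that were lower the shares were 68.3% and 69.4%. Of the others, 465 synarcual features that were higher and 482 that were lower differed by less than 2-fold in the post-synarcual, and 9 differed there by 2-fold or more in the opposite direction. The difference of the log2 stage folds, synarcual minus post-synarcual, had a median of 0.01, which the TMM scaling sets near 0, and 5% of features lay below -0.95 and 5% above 1.12. It was 2 or more for 94 features and -2 or less for 47. With total counts the median was 0.52 and the numbers were 247 and 24. Both regions of a stage may come from the same males, and with 1 library in each group the difference between regions was not tested.

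**Figure D5:**
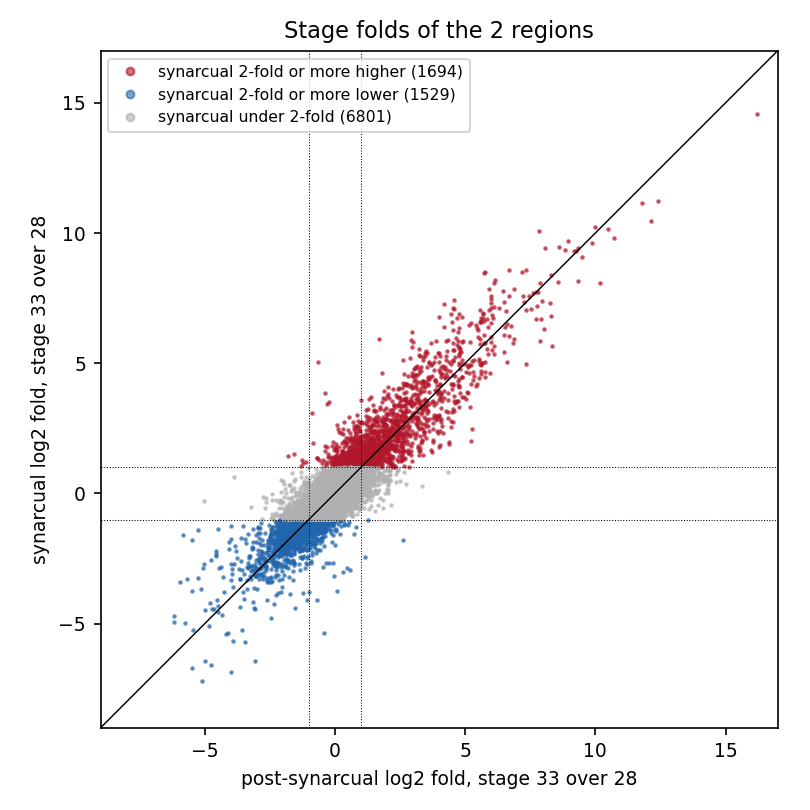
Log2 stage fold of 10024 features in the synarcual (vertical axis) against that in the post-synarcual (horizontal axis), both stage 33 over stage 28 with TMM scaling; dotted lines mark 2-fold and the solid line equal folds. Most of the 1694 features that were higher and the 1529 that were lower in the synarcual lie on the same side in the post-synarcual.

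The level of a feature in the post-synarcual at stage 28, a library outside the synarcual fold, was set beside its stage fold in the synarcual. Of 112 features under 1 TPM there, 88 (78.6%) were at least 2-fold higher in the stage 33 synarcual and 24 (21.4%) at least 2-fold lower. Of 1818 features from 1 to 10 TPM, 46.2% were higher and 12.5% lower. The shares were 12.5% higher and 16.03% lower from 10 to 100 TPM, 10.5% and 22.2% from 100 to 1000 TPM, and 6.04% and 10.7% at 1000 TPM or more. With total counts the shares higher were 78.6%, 30.3%, 5.53%, 6.53% and 4.03%, and the shares lower 21.4%, 23.98%, 44.6%, 51.4% and 57.05%. A feature of low level at stage 28 can pass the count minimum through its stage 33 count alone, which raises the shares higher under 10 TPM, so no order is read from them. A feature under 1 TPM can likewise pass through its stage 28 synarcual count alone. The 21.4% lower is therefore not read as a result either.

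The share of features that were lower at stage 33 varied with length, without a steady order. The share lower by 2-fold or more was 13.04% among the 207 compared features under 500 bp, 19.1% among 870 compared features of 500 to 1000 bp, 20.3% among 3253 of 1000 to 2000 bp, 14.7% among 4607 of 2000 to 4000 bp and 11.5% among 1951 of 4000 bp or more. With total counts the shares lower were 37.2%, 47.4%, 47.9%, 39.9% and 34.4%. Under both scalings the share was highest from 1000 to 2000 bp, and the difference between lengths was not tested. The share higher by 2-fold or more was 14.7%, 17.3%, 19.3% and 20.5% in the ranges from 500 bp upward with TMM, and 9.43%, 10.8%, 10.7% and 9.74% with total counts, so its order by length rests on the scaling. The share at least 16-fold higher was 4.25%, 3.17%, 2.24% and 2.46% in these ranges, and 8.21% of the 207 compared features under 500 bp. Of the 5414 features under 500 bp only 3.82% had enough counts to be compared, against 97.99% of those of 4000 bp or more. The mean fragment length implied by the deposited effective lengths was, for the synarcual, 203 bp at stage 33 and 192 bp at stage 28. Its part in these shares was not tested.

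The estimated mix of transcripts, as read from the deposited lengths, also differed between stages for part of the features. With 1 library in each group, the error of assigning reads to transcripts was not estimated. Mean fragment length in the synarcual was 203 bp at stage 33 and 192 bp at stage 28. In the post-synarcual it was 194 bp and 195 bp, and its part in these shifts was not tested. For a feature with several transcripts the deposited length differs between libraries with the transcripts that carry the reads, and 2071 such features had at least 50 counts in both synarcual libraries. The length was at least 10% longer at stage 33 in 176 of them and at least 10% shorter in 204, together 18.3%. In the post-synarcual the share for stage 33 over stage 28 was 18.1% of 1910 features. Between the regions of 1 stage it was 10.1% of 1979 features at stage 33 and 9.57% of 2382 at stage 28. With at least 200 counts in both libraries the shares were 16.3% of 662 features and 13.98% of 522 between stages, in the synarcual and the post-synarcual, and 5.25% of 610 and 7.69% of 1001 between regions, at stages 33 and 28. Shifts of 10% were thus more frequent between stages than between regions at both count minimums. In the synarcual the median change was 0% at 50 counts and 0.0279% at 200, with 54 features longer and 54 shorter by 10% at the higher minimum. In the post-synarcual more features were longer than shorter at stage 33, with 201 against 144 at 50 counts and 47 against 26 at 200, and the difference between regions was not tested.

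The features next to the limits that define the sets had the following values. With 50 to 59 counts in the higher library, just inside the minimum, 150 of 685 features were higher by 2-fold or more at stage 33 and 111 lower. With 40 to 49 counts, just outside, the numbers were 159 and 146 of 781. The fold limit itself had 443 features with a log2 fold between 1 and 1.1 in size and 461 between 0.9 and 1. With counting error taken into account, 1485 of the 2012 features that were higher and 955 of the 1751 that were lower had a 95% counting interval wholly beyond 2-fold, and 239 and 32 had one wholly beyond 16-fold. Of the 7125 features under 2-fold, 4021 had an interval that left out equal levels.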

How the data were processed

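Libraries were made with an unstranded kit and shared 1 sequencing lane, per the labels' protocols. The submitters' processing notes name Bowtie2 and RSEM; their versions and any filters are not stated there. The authors' files hold estimated counts (expected counts, not normalized), TPM (corrected for effective length and scaled to 1 total) and lengths, per the file headers. Estimated counts were rounded; 1.71% of values at stage 33 and 1.79% at stage 28 in the synarcual were not whole. No source used here states if a count is a read or a pair, and without molecular identifiers counts are not independent molecules, so intervals cover counting error only. TMM factors (edgeR 4.0.16, R 4.3.3) came from the 14668 features that reached 10 counts in 2 or more libraries. Log2 folds used a prior count of 2, and ratios have exact 95% Clopper-Pearson intervals (scipy 1.17.1). Of 23105 features, 2658 share a component with another; their counts, and those of overlapping genes on opposite strands, are uncertain. The calculation was run on simulated counts that had counting error only and the same TMM-scaled library sizes. Such data cannot check the scaling or variation between animals. The 4 identifiers printed are, in each direction, the largest fold by its nearer counting bound and the largest change in scaled CPM. 0 identifiers matched RefSeq, so planned marker lists were not used. Sets and rules were chosen with earlier results of these data known.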

Additional observations from a re-analysis of the deposited data

Results flagged for a closer look

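With TMM scaling, the stage difference ran in opposite directions in the 2 regions for 9 features that differed at least 2-fold in both. Of these, 6 were higher at stage 33 in the synarcual and lower at stage 33 in the post-synarcual, with log2 folds from 1.05 to 1.51 in the synarcual and from -1.81 to -1.11 in the post-synarcual. The other 3 were lower at stage 33 in the synarcual, with log2 folds from -2.43 to -1.03, and higher in the post-synarcual, with 1.15 to 2.62. With 1 library in each group, the difference between regions was not tested. These calls rest on the scaling: with total counts 20 features had opposite directions, 19 of them higher and 1 lower at stage 33 in the synarcual, and only 1 of the 20 is among the 9. The counts of the 9 in the stage 33 synarcual ran from 68 to 231 and from 104 to 287, and none of the 9 was a feature named above. In the stage 33 post-synarcual they ran from 18 to 273 and from 131 to 576. At stage 28 the 6 had 47 to 138 counts in the synarcual and 105 to 1781 in the post-synarcual. The 3 had 428 to 1485 and 99 to 172 there. The rule that chose the 9 uses these same counts and calls for a difference between the regions at 1 stage or both. These values therefore describe the 9 features only, in 1 library each.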

How the results depend on the processing

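Of 73 recalculated values, 47 stayed close to the reported one (counts within 1.5 times, the upward share within its 95% binomial interval, medians within 0.1 log2) and 26 moved. The order of the 2-fold counts was not kept. As reported, more features were higher than lower at stage 33 (53.5% upward). With total counts, deposited TPM or upper quartile factors, more were lower than higher. With total counts, 1144 features were at least 2-fold higher and 4555 lower at stage 33 (20.1% upward), 144 were at least 16-fold lower, the median log2 fold was -0.80 and 20 features had opposite directions in the regions, 1 of them among the 9 reported. With deposited TPM (0.5 added), 2905 were at least 2-fold lower (33.4% upward), the median was -0.44 and 24 were opposite. Upper quartile factors gave 47.4% upward and a median of -0.18, and DESeq2 1.42.0 size factors 55.3%. A minimum of 200 counts gave 939 higher and 803 lower, 30 at least 16-fold lower, 38 at the detection limit at 1 stage and 3 opposite. A minimum of 20 gave 544 at the limit and 17 opposite. With no minimum beyond 1 count, 4372 were higher and 3559 lower (55.1% upward). Intervals wholly beyond the fold left 955 lower (60.9% upward) and 32 at least 16-fold lower. The number at least 16-fold higher was between 212 and 353 under every alternative run, against 308 reported. Summing the features of a component moved no count by over 1.5 times. No paired analysis was possible because each group has 1 library, and no library could be left out. Depth limits the features near 0 counts, where a difference was not detectable.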
